A study of Homo sapiens with 18 samples.

Results

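The 54 genes described here act in mitotic entry, spindle assembly, chromosome condensation, anaphase and cytokinesis. They were taken by gene symbol from the 62830 rows of a table of expression values, and each symbol matched 1 Ensembl identifier; the matching rule uses no measured value, but the list of symbols was drawn up with earlier results of these data known. The cells were MDA-MB-231, an established line derived from a triple-negative breast cancer. Poly(A) RNA was sequenced from 18 libraries in 6 groups of 3: TRIM27 knockout (KO) cells given olaparib, KO cells transfected with an siRNA against PARP1 (siPARP1), wild-type (WT) cells given olaparib, WT cells transfected with siPARP1, KO cells with no treatment label, and WT cells with no treatment label. TRIM27 is a tripartite motif protein with ubiquitin ligase activity, and olaparib blocks the catalytic activity of the DNA damage sensor PARP1 and of its close relative PARP2. Olaparib was used at 2 µM for 24 hours, and the siRNA at 100 pM for 48 hours. The protocol mentions DMSO and non-targeting siRNA controls, but no label says whether the libraries without a treatment label, called untreated here, received either of them. The labels used here do not say how the knockout was made or whether the KO cells are 1 clone. All libraries carry the same batch label. Whether the 3 libraries of 1 group stem from different cultures is not stated, so the p-values describe only the spread among these libraries, which may be technical.

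Entry into mitosis is driven by the kinase CDK1 bound to cyclin B, with Polo-like and Aurora kinases acting beside it, while condensins compact the chromosomes and kinesin motors build the spindle. The anaphase-promoting complex with its activator CDC20 then marks securin and cyclin B for destruction, separase opens cohesin, and anillin, centralspindlin and RHOA drive cytokinesis. Most of these genes are transcribed late in the cell cycle: the MuvB core, a protein complex, binds the cell cycle genes homology region (CHR) in their promoters with repressor partners in resting cells and with MYBL2 (B-MYB) and FOXM1 in dividing cells, and the factor NF-Y binds CCAAT boxes nearby. Transcripts of this group therefore rise and fall with the share of dividing cells in a culture, and in RNA from whole cultures fewer cells of a kind and less RNA per cell cannot be told apart.

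The checks of the labels came out as follows. TRIM27 averaged 0.623 ± 0.066 FPKM in untreated KO cells and 1.45 ± 0.24 FPKM in untreated WT cells (SD, n = 3 each), or 43.1% of the WT mean. On the log2(FPKM + 1) scale, which understates changes of such low values, the difference was −0.59 (limma's moderated test, adjusted p = 0.000538). The transcript was thus lower in KO cells but present. PARP1 averaged 9.25 FPKM under siPARP1 and 55.2 FPKM untreated in KO cells, and 10.7 FPKM under siPARP1 and 56.2 FPKM untreated in WT cells. PARP1 was also lower under olaparib than untreated (log2 −0.45 in KO and −0.52 in WT cells). TRIM27 was higher under siPARP1 than untreated (log2 0.29 in KO and 0.26 in WT cells). The cells are labelled epithelial: the keratins KRT8, KRT18 and KRT19 were at 141 FPKM or more in every library, but the epithelial adhesion genes EPCAM and CDH1 reached at most 0.31 and 0.0968 FPKM, and the mesenchymal gene VIM was at 1560 FPKM or more. The leukocyte genes PTPRC and CD3E and the endothelial gene PECAM1 reached at most 0.0476, 0 and 0.01 FPKM. FPKM (fragments scaled by transcript length and by mapped fragments) is a level per transcript length and hides the number of reads; the absolute depth is unknown, and relative depth, read from the steps between low values, spanned 0.749 to 1.24 times that of WT untreated library 1.

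The promoter letters of 6 members are shown for the CHR and the CCAAT box. In the forms searched, 5 of the 6 hold both elements, and CCNB1 holds CCAAT only. Other forms of the CHR were not searched. RefSeq windows on GRCh38.p14, reaching from 250 bases before to 50 bases after a transcription start, were at hand for 46 of the 54 members (58 windows). The motifs searched on both strands were the CHR, as TTTGAA or TTCGAA, and the NF-Y box CCAAT; the matches printed here do not overlap one another, although the motifs could share an edge base. A CHR lay in 65.5% of member windows, against 16.4% of all 35116 windows, and CCAAT lay in 72.4% of member windows, against 34.6% of all. Both lay in 55.2% of member windows, against 6.38% of all. The sequences are the 250 bases before the start, 5′ to 3′ on the gene's strand, with every CHR and CCAAT match on either strand in capitals. CDK1 (chr10:60778228-60778477, plus strand) was chosen as the kinase of mitotic entry, CCNB1 (chr5:69166900-69167149, plus) and CCNB2 (chr15:59104896-59105145, plus) as its cyclins, PLK1 (chr16:23678639-23678888, plus) as the Polo-like kinase, TOP2A (chr17:40417897-40418146, minus) as the member with the highest level of all, and CDC20 (chr1:43358731-43358980, plus) as the anaphase activator.
CDK1: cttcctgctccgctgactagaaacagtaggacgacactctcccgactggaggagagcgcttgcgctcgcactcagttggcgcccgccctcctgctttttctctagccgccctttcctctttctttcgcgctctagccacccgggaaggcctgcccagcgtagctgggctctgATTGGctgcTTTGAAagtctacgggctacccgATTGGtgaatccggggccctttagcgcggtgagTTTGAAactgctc
CCNB1: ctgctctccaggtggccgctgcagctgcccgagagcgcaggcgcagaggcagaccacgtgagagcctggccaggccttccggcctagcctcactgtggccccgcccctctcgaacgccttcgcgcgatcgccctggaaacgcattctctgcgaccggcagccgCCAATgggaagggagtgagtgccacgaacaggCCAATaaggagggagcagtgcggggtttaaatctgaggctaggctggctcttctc
CCNB2: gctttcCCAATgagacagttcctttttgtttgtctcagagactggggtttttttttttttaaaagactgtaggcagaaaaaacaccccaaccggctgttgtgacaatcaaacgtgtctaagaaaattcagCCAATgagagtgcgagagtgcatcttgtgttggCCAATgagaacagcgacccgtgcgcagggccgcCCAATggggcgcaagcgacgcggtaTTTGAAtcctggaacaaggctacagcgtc
PLK1: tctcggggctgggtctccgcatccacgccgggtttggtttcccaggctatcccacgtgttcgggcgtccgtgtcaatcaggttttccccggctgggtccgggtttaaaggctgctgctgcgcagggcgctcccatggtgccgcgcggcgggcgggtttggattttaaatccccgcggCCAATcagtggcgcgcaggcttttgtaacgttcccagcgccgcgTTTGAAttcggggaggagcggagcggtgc
TOP2A: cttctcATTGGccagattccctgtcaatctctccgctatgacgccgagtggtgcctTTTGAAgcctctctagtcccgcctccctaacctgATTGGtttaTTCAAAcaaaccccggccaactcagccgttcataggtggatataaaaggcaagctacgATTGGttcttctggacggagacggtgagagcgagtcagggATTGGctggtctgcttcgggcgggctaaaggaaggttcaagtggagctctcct
CDC20: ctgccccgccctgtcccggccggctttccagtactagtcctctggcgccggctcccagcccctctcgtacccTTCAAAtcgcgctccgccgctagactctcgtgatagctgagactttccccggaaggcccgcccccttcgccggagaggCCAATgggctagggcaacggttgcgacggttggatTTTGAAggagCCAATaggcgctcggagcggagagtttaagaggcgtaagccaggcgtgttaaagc
The CDK1 stretch held 2 CHR and 2 CCAAT matches, CCNB2 held 1 and 4, PLK1 held 1 and 1, TOP2A held 2 and 4, and CDC20 held 2 and 2. The CCNB1 stretch held 2 CCAAT matches and no CHR of the searched forms. A match is a description of the letters and not evidence of binding.

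All 54 members passed the filter on low values (1 FPKM or more in 3 or more libraries), with levels between 2.25 and 162 FPKM. The summed level of the 54 genes was 1495 ± 15 FPKM in olaparib-treated KO cells, 1221 ± 6 FPKM in siPARP1 KO cells and 2385 ± 20 FPKM in untreated KO cells (SD, n = 3 each). It was 1418 ± 29 FPKM in olaparib-treated WT cells, 1307 ± 12 FPKM in siPARP1 WT cells and 2468 ± 24 FPKM in untreated WT cells (SD, n = 3 each). Every treated library was therefore below every untreated one, between 1216 and 1506 FPKM against between 2369 and 2496 FPKM. As a share of the FPKM of annotated genes outside the mitochondrial genome, the sum was 0.436% and 0.354% in olaparib and siPARP1 KO cells, against 0.694% in untreated KO cells. In WT cells that share was 0.415% and 0.369% under olaparib and siPARP1, against 0.718% untreated. Reads of the mitochondrial genome moved with treatment too, from 23.5 to 25.4% of annotated FPKM in olaparib libraries and from 25.5 to 28.2% in siPARP1 libraries, against 19 to 22.1% in untreated ones; with all libraries rescaled to annotated genes outside that genome, 48 members in KO cells and 49 in WT cells were lower under olaparib, and 53 and 54 under siPARP1.

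**Figure D1:**
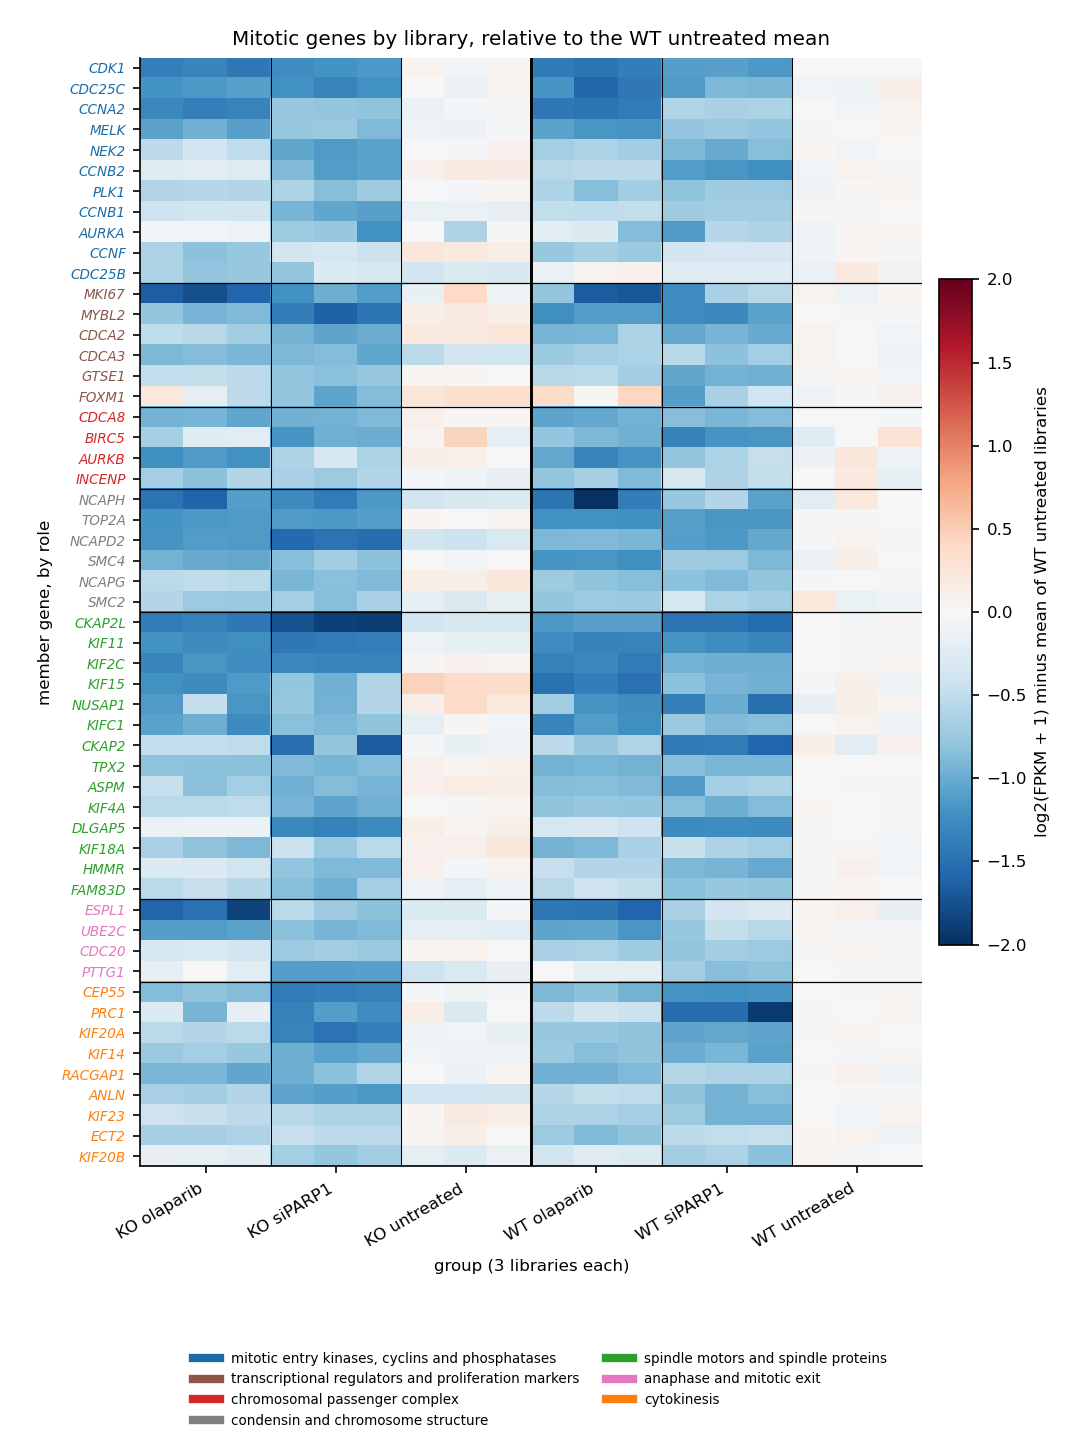
Each row is 1 of the 54 genes, coloured by role, and each column 1 of the 18 libraries; colour gives log2(FPKM + 1) minus the mean of the 3 WT untreated libraries. Olaparib and siPARP1 columns are blue for nearly all rows in both genotypes, and the untreated KO columns stay closer to white. NCAPH, ESPL1 and KIF15 are among the darkest rows under olaparib in WT cells, and PRC1, CKAP2L and CKAP2 under siPARP1.

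Almost the whole group was lower under olaparib than in untreated cells, in both genotypes. Whether the untreated libraries had the drug's vehicle, a control siRNA or the same time in culture is not labelled. In all comparisons with untreated cells, the agents therefore cannot be told apart from these. A gene was called when the Benjamini-Hochberg adjusted p of limma's moderated test on log2(FPKM + 1), over 15764 genes, was under 0.05. In KO cells 49 of the 54 members fell and 0 rose; over all genes 22% were lower and 25.2% higher in that comparison. In WT cells 50 of 54 fell and 0 rose, where 20.4% of all genes were lower and 24.9% higher. At an unadjusted p under 0.05, limma gave 1 member higher in KO cells and 0 in WT cells. The members' median log2 change was −0.74 in KO cells and −0.82 in WT cells, beside medians over all genes of 0.03 in both. A set of 47 members fell in both genotypes, which share no libraries in these comparisons. The share of all genes that fell in both genotypes was not counted. Across the 54 members the log2 changes in KO and WT cells had a Pearson r of 0.862 and a Spearman rho of 0.938, as a description of genes that share their libraries. Over all 15764 genes that r was 0.806.

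The genes of mitotic entry came first. CDK1 (ENSG00000170312, chr10:60778331-60794852), the kinase that starts mitosis, measured 26.6, 27.4 and 25.3 FPKM in olaparib KO libraries, against 73.8, 67.4 and 71.8 FPKM in untreated KO libraries. In WT cells it measured 25.6, 24.9 and 26.2 FPKM under olaparib, against 69.7, 70.6 and 69.6 FPKM untreated. All 6 treated libraries were far below all 6 untreated ones, at 37.2% of the untreated mean in KO cells and 36.6% in WT cells (log2 −1.39 ± 0.04 and −1.42 ± 0.04, SE; adjusted p = 5.23e-12 and 4.52e-12). Its partner CCNB1 (cyclin B1, ENSG00000134057, chr5:69167010-69178245) measured 94.6, 97.8 and 98.1 FPKM in olaparib KO libraries, against 115, 116 and 113 FPKM in untreated KO libraries. In WT cells CCNB1 measured 89.6, 88.9 and 89.4 FPKM under olaparib, against 129, 124 and 126.5 FPKM untreated. The groups did not overlap, but CCNB1 kept 84.5% of its untreated mean in KO cells and 70.5% in WT cells (log2 −0.24 ± 0.04 and −0.50 ± 0.04, SE), a smaller fall than that of CDK1. CCNA2, the cyclin of S phase and early mitosis, fell to 40% in KO cells and 35.4% in WT cells. PLK1 (Polo-like kinase, ENSG00000166851, chr16:23677656-23690367) measured 17.0, 17.5 and 17.3 FPKM in olaparib KO libraries, against 26.5, 25.9 and 27.4 FPKM in untreated KO libraries. In WT cells PLK1 measured 16.8, 14.2 and 16.0 FPKM under olaparib, against 25.2, 26.8 and 27.3 FPKM untreated. PLK1 fell in both genotypes, with no overlap between treated and untreated libraries (log2 −0.60 and −0.72; adjusted p = 3.21e-06 and 5.03e-07). AURKA, the Aurora kinase of the spindle poles, did not pass the test in either genotype (log2 0.15 in KO cells and −0.45 in WT cells), and CDC25B, a phosphatase that activates CDK1, passed in KO cells (log2 −0.40) but not in WT cells (log2 0.01).

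Among regulators of transcription and markers of proliferation, MKI67 (ENSG00000148773, chr10:128096659-128126385), which coats mitotic chromosomes and is the usual proliferation marker, measured 9.99, 9.28 and 10.5 FPKM in olaparib KO libraries, against 30.2, 44.8 and 31.4 FPKM in untreated KO libraries. In WT cells it measured 19.2, 9.87 and 9.68 FPKM under olaparib, against 35.3, 31.3 and 34.4 FPKM untreated. MKI67 fell in both genotypes (log2 −1.72 ± 0.23 and −1.38 ± 0.23, SE), and its libraries within a group differed by up to 1.99-fold, the widest within-group spread of any member. MYBL2, the MYB partner of MuvB, fell to 48.5% in KO cells and 43.4% in WT cells. FOXM1 (ENSG00000111206, chr12:2857681-2877155), the forkhead factor of late cell cycle genes, measured 35.4, 26.6 and 20.8 FPKM in olaparib KO libraries, against 36.1, 38.2 and 38.8 FPKM in untreated KO libraries. In WT cells FOXM1 measured 39.7, 31.0 and 41.1 FPKM under olaparib, against 28.9, 30 and 32.5 FPKM untreated. The FOXM1 groups did not overlap in KO cells and overlapped in WT cells (log2 −0.47, adjusted p = 0.0484, and 0.27, adjusted p = 0.246). The KO call was lost when any of KO untreated libraries 1, 2 and 3 or KO olaparib libraries 2 and 3 was left out (log2 −0.50 to −0.29; adjusted p 0.0745 to 0.225), and the difference between the genotypes in the FOXM1 response did not pass the test (KO minus WT, log2 −0.74; adjusted p = 0.157).

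The passenger complex, condensins and spindle genes fell throughout in WT cells. All 4 chromosomal passenger genes and all 6 condensin and topoisomerase genes fell in both genotypes. For BIRC5, a passenger gene, the KO call was lost without KO untreated library 2 or KO olaparib library 1 (log2 −0.32 and −0.34). It was also lost with only the groups compared in the fit. AURKB (Aurora B, ENSG00000178999, chr17:8204733-8210600), the complex's kinase, measured 20.8, 22.3 and 21.0 FPKM in olaparib KO libraries, against 54.6, 54 and 50.3 FPKM in untreated KO libraries. In WT cells AURKB measured 24.0, 19.8 and 21.6 FPKM under olaparib, against 45.9, 58.7 and 46.5 FPKM untreated, so treated and untreated libraries stood clear of each other (log2 −1.27 in KO and −1.17 in WT cells). TOP2A (topoisomerase II alpha, ENSG00000131747, chr17:40388516-40417950), which untangles sister chromatids, measured 67.3, 69.3 and 70.2 FPKM in olaparib KO libraries, against 160, 156 and 162 FPKM in untreated KO libraries. In WT cells TOP2A measured 66.7, 66.6 and 65.6 FPKM under olaparib, against 157, 153 and 156 FPKM untreated. The log2 change of TOP2A was −1.20 in KO and −1.22 in WT cells (SE 0.034 each), and no treated library came near an untreated one. NCAPH, a condensin I subunit, had the largest fall of any member on the log2(FPKM + 1) scale under olaparib in WT cells: 10.4, 6.93 and 10.9 FPKM under olaparib, against 26.0, 35.3 and 30.1 FPKM untreated (log2 −1.61 ± 0.17, SE; adjusted p = 2.70e-06). As a share of the untreated mean, NCAPH stood at 30.9% and ESPL1 at 31.0%, while KIF15 stood lower, at 28.6%.

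KIF11 (ENSG00000138160, chr10:92593286-92655395), the kinesin that pushes spindle poles apart, measured 15.4, 14.6 and 15 FPKM in olaparib KO libraries, against 33.8, 31.6 and 31.7 FPKM in untreated KO libraries. In WT cells KIF11 measured 14.8, 13.7 and 13.8 FPKM under olaparib, against 36.7, 37.1 and 35.5 FPKM untreated. It fell to 46.3% and 38.7% of the untreated mean, with no overlap; the listed KIF11 transcripts do not add up to the gene's value, and their sum gave no fall in WT cells (log2 0.01). KIF15, another kinesin of the bipolar spindle, measured 2.25, 2.51 and 2.25 FPKM in olaparib WT libraries, against 7.95, 8.94 and 7.61 FPKM in untreated WT libraries (log2 −1.46 ± 0.08, SE; adjusted p = 4.14e-09). In KO cells KIF15 averaged 2.99 ± 0.18 FPKM under olaparib and 11.2 ± 0.4 FPKM untreated (SD, n = 3 each). DLGAP5, which stabilises microtubules at kinetochores, kept most of its level, at 85.6% of untreated in KO cells and 77.1% in WT cells.

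Of the 4 anaphase genes, 3 fell under olaparib in each genotype, and PTTG1 did not pass the test. UBE2C fell to 53.1% of untreated in KO cells and 46.5% in WT cells. ESPL1, the separase that opens cohesin, measured 4.02, 4.38 and 3.15 FPKM in olaparib KO libraries, against 11.4, 11.4 and 13.7 FPKM in untreated KO libraries. In WT cells ESPL1 measured 4.57, 4.53 and 4.03 FPKM under olaparib, against 14.6, 15.2 and 12.5 FPKM untreated (log2 −1.44 ± 0.12 in KO and −1.49 ± 0.12 in WT cells, SE). PTTG1, the securin that holds separase in check, measured 100, 113 and 96.8 FPKM in olaparib KO libraries, against 83.6, 90.5 and 101 FPKM in untreated KO libraries. In WT cells PTTG1 measured 111, 97.6 and 99.0 FPKM under olaparib, against 113, 114 and 109 FPKM untreated. The PTTG1 groups overlapped in both genotypes and neither change passed the test (log2 0.17, adjusted p = 0.0736, in KO and −0.13, adjusted p = 0.182, in WT cells), while ESPL1 stood clear of its untreated values. PTTG1 has near-identical copies in the genome (PTTG2 and PTTG3P), as KIF4A does (KIF4B), and the sources used here do not state how such reads were split. CDC20 (ENSG00000117399, chr1:43358955-43363203), the activator of the anaphase-promoting complex, measured 74.6, 76.6 and 72.0 FPKM in olaparib KO libraries, against 97.6, 99.5 and 93.5 FPKM in untreated KO libraries. In WT cells CDC20 measured 59.9, 60.8 and 57.5 FPKM under olaparib, against 93.0, 97.1 and 92.9 FPKM untreated, and fell with no overlap in both (log2 −0.38 in KO and −0.66 in WT cells).

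Of the cytokinesis genes, 7 of 9 fell under olaparib in KO cells (median log2 −0.58) and 9 of 9 in WT cells (median log2 −0.78). ANLN (anillin, ENSG00000011426, chr7:36389806-36453791), the scaffold of the contractile ring, measured 72.2, 69.8 and 75.3 FPKM in olaparib KO libraries, against 87.2, 87.1 and 88.1 FPKM in untreated KO libraries. In WT cells ANLN measured 76.1, 81.9 and 79.4 FPKM under olaparib, against 114, 116 and 112 FPKM untreated. The groups did not overlap in either genotype (log2 −0.27 and −0.52). PRC1, which bundles midzone microtubules, passed the test narrowly in WT cells (log2 −0.44, adjusted p = 0.0468) and did not pass in KO cells (log2 −0.41, adjusted p = 0.0612); the WT call was lost on leaving out any 1 of the 6 WT olaparib and WT untreated libraries (log2 −0.48 to −0.40). KIF20B, a kinesin of the midbody, fell in WT cells (log2 −0.30) and stood at log2 0.00 in KO cells.

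**Figure D2:**
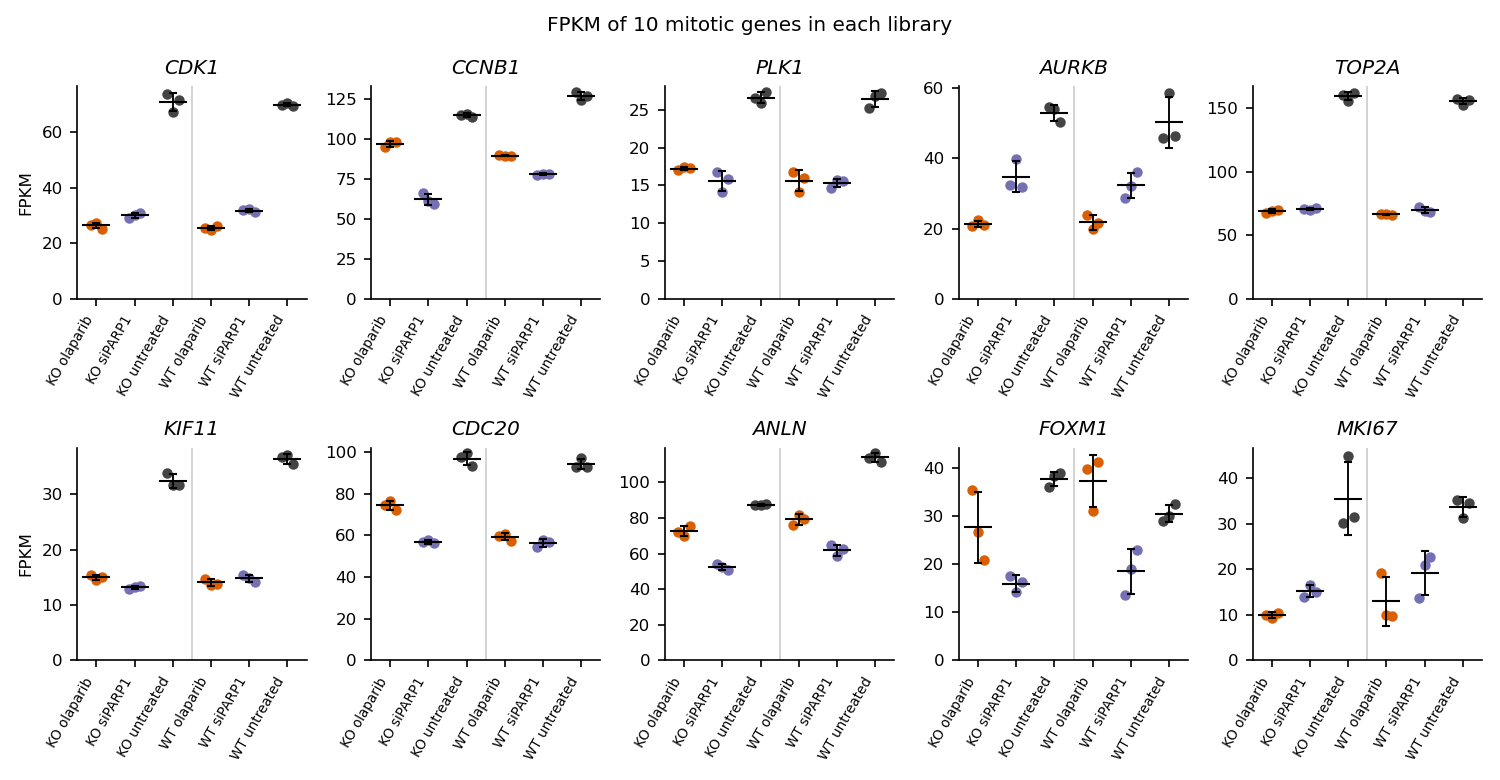
FPKM (linear axis from 0) of 10 genes in each library; points are libraries, coloured by treatment, and the bar and whiskers give the mean and SD of the 3 libraries. CDK1, TOP2A, KIF11 and AURKB drop far below untreated in both treatments, CCNB1, CDC20 and ANLN sit higher under olaparib than under siPARP1 in KO cells, and FOXM1 and MKI67 scatter most within groups.

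Under siPARP1 the group was lower than in untreated cells as broadly, with the same limit on the untreated libraries. In KO cells 53 of 54 members fell and 0 rose, where 22.8% of all genes were lower and 31.9% higher. In WT cells 53 of 54 fell and 0 rose, where 22.3% of all genes were lower and 29.5% higher; at an unadjusted p under 0.05, limma gave 0 members higher in either genotype. The median log2 change was −0.95 in KO cells and −0.85 in WT cells, beside 0.07 over all genes in both, and 53 members fell in both genotypes. The exception in both was CDC25B (log2 −0.13 in KO and −0.26 in WT cells). Here too, the share of all genes that fell in both genotypes was not counted. Across members the KO and WT changes had r = 0.813 and rho = 0.846, beside r = 0.811 over all genes. These comparisons use the same untreated libraries as the olaparib ones, so both sets of values share that error.

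CDK1 measured 29.1, 30.2 and 30.9 FPKM in siPARP1 KO libraries and 31.9, 32.3 and 31.1 FPKM in siPARP1 WT libraries, 42.3% and 45.4% of untreated. CCNB1 measured 66.0, 61.0 and 59.4 FPKM in siPARP1 KO libraries and 77.3, 77.8 and 78.2 FPKM in siPARP1 WT libraries, 54.2% and 61.4% of untreated. CCNB2, the other B-type cyclin, fell to 43.6% in KO and 43.3% in WT cells. All of these libraries were below every untreated library of their genotype.

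PLK1 measured 16.8, 14.2 and 15.8 FPKM in siPARP1 KO libraries and 14.7, 15.7 and 15.5 FPKM in siPARP1 WT libraries (log2 −0.74 and −0.75). FOXM1 measured 17.5, 14.1 and 16.2 FPKM in siPARP1 KO libraries and 13.6, 19 and 22.9 FPKM in siPARP1 WT libraries, below all untreated libraries (log2 −1.20 and −0.72; adjusted p = 6.24e-05 and 0.00441). MKI67 measured 14.0, 16.6 and 14.9 FPKM in siPARP1 KO libraries and 13.6, 21.0 and 22.7 FPKM in siPARP1 WT libraries. MKI67 therefore fell in both genotypes (log2 −1.16 and −0.82). AURKB measured 32.4, 40 and 32.0 FPKM in siPARP1 KO libraries and 28.8, 32.1 and 36.0 FPKM in siPARP1 WT libraries, which is 65.7% and 64.2% of untreated. TOP2A measured 70.3, 69.6 and 71.7 FPKM in siPARP1 KO libraries and 72.3, 68.9 and 68.4 FPKM in siPARP1 WT libraries. KIF11 measured 12.9, 13.3 and 13.4 FPKM in siPARP1 KO libraries and 15.5, 14.8 and 14.2 FPKM in siPARP1 WT libraries. Both stood at 40.8 to 45% of untreated.

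The 3 largest falls under siPARP1 in WT cells, on the log2(FPKM + 1) scale, were those of PRC1, CKAP2L and CKAP2, a midzone bundler and a pair of spindle-associated proteins. PRC1 measured 19.9, 19.9 and 14.9 FPKM under siPARP1, against 57.4, 58.4 and 61.0 FPKM untreated (log2 −1.65 ± 0.17, SE; adjusted p = 1.35e-06). CKAP2L measured 17.8, 17.8 and 16.9 FPKM under siPARP1, against 51.2, 50.1 and 51.5 FPKM untreated (log2 −1.49 ± 0.05, SE; adjusted p = 5.71e-12). CKAP2 measured 22.3, 22.5 and 19.6 FPKM under siPARP1, against 66.5, 52.6 and 64.5 FPKM untreated (log2 −1.46 ± 0.16, SE; adjusted p = 3.64e-06). None of these overlapped with untreated libraries. CDC20 measured 56.6, 58.0 and 56.2 FPKM in siPARP1 KO libraries and 54.3, 57.7 and 56.9 FPKM in siPARP1 WT libraries, and ANLN measured 54.1, 52.3 and 51.0 FPKM in KO and 64.7, 58.4 and 62.4 FPKM in WT libraries. PTTG1, flat under olaparib, fell under siPARP1 to 56.7% in KO and 57.9% in WT cells (adjusted p = 4.00e-07 and 6.25e-07). Of the 54 genes, 8 had libraries of 1 group differing by more than 1.5-fold (MKI67, CKAP2, PRC1, FOXM1, NUSAP1, AURKA, NCAPH and BIRC5). Without those 8, a choice made after seeing the data, 44 of 46 fell under olaparib in either genotype and 45 of 46 under siPARP1 in either genotype.

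Set directly against each other, the treatments left some members higher under olaparib, among them CCNB1, CCNB2, PTTG1 and DLGAP5, and others lower, among them CDK1, CCNA2, AURKB and ESPL1. The times and the delivery of the agents differ (24 and 48 hours, drug and transfection), and these cannot be told apart from the agents. In KO cells 26 members were higher and 11 lower under olaparib than under siPARP1, where 22.4% of all genes were higher and 29.7% lower. In WT cells 20 were higher and 18 lower, where 23.4% of all genes were higher and 28.3% lower. The 2 contrasts share no library. A set of 19 members was higher in both genotypes and 11 were lower in both, with 0 called in opposite directions; across the 54 members r was 0.865, and across all genes 0.824. How many of all genes were called alike in both genotypes, or in opposite directions, was not counted. Without the 8 unevenly measured genes, 21 were higher and 11 lower in KO cells, and 17 and 17 in WT cells.

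The 19 genes higher under olaparib in both genotypes were ANLN, CCNB1, CCNB2, CEP55, CKAP2, CKAP2L, DLGAP5, FAM83D, FOXM1, GTSE1, HMMR, KIF14, KIF20A, KIF20B, KIF4A, NCAPD2, NEK2, PRC1 and PTTG1. The 11 lower in both were AURKB, CCNA2, CCNF, CDK1, ECT2, ESPL1, KIF15, KIFC1, MELK, SMC4 and UBE2C. DLGAP5 (chr14:55148112-55191678) had the largest difference of the first set in KO cells: it measured 48.1, 48.5 and 48.9 FPKM in olaparib KO libraries, against 21.1, 20 and 21.4 FPKM in siPARP1 KO libraries. In WT cells DLGAP5 measured 41.1, 41.7 and 39.6 FPKM under olaparib, against 21.3, 21.9 and 21.5 FPKM under siPARP1. The treatments did not overlap in either genotype (log2 1.18 ± 0.04 and 0.89 ± 0.04, SE; adjusted p = 3.46e-12 and 8.13e-11). ESPL1 had the largest difference of the second set in both genotypes, with 3.85 ± 0.63 FPKM under olaparib and 8.33 ± 0.90 FPKM under siPARP1 in KO cells, and 4.37 ± 0.30 and 10.1 ± 1.4 FPKM in WT cells (SD, n = 3 each; log2 −0.95 and −1.04). PTTG1, the inhibitor of separase, was higher under olaparib (log2 0.97 in KO and 0.65 in WT cells). Of the cyclins, CCNB2 was higher under olaparib (log2 0.78 and 0.64) and CCNA2 lower (log2 −0.55 and −0.80). By role, 6 of 9 cytokinesis genes were higher under olaparib and 1 lower in KO cells, and 7 and 2 of 9 in WT cells; of the 4 passenger genes, 1 was higher and 1 lower in KO cells, and 0 and 3 in WT cells. TOP2A and PLK1 did not pass the test in either genotype. The TOP2A difference was −0.03 in KO and −0.07 in WT cells on the log2 scale (SE 0.034 each), and that of PLK1 was 0.14 and 0.03 (SE 0.065 each).

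**Figure D3:**
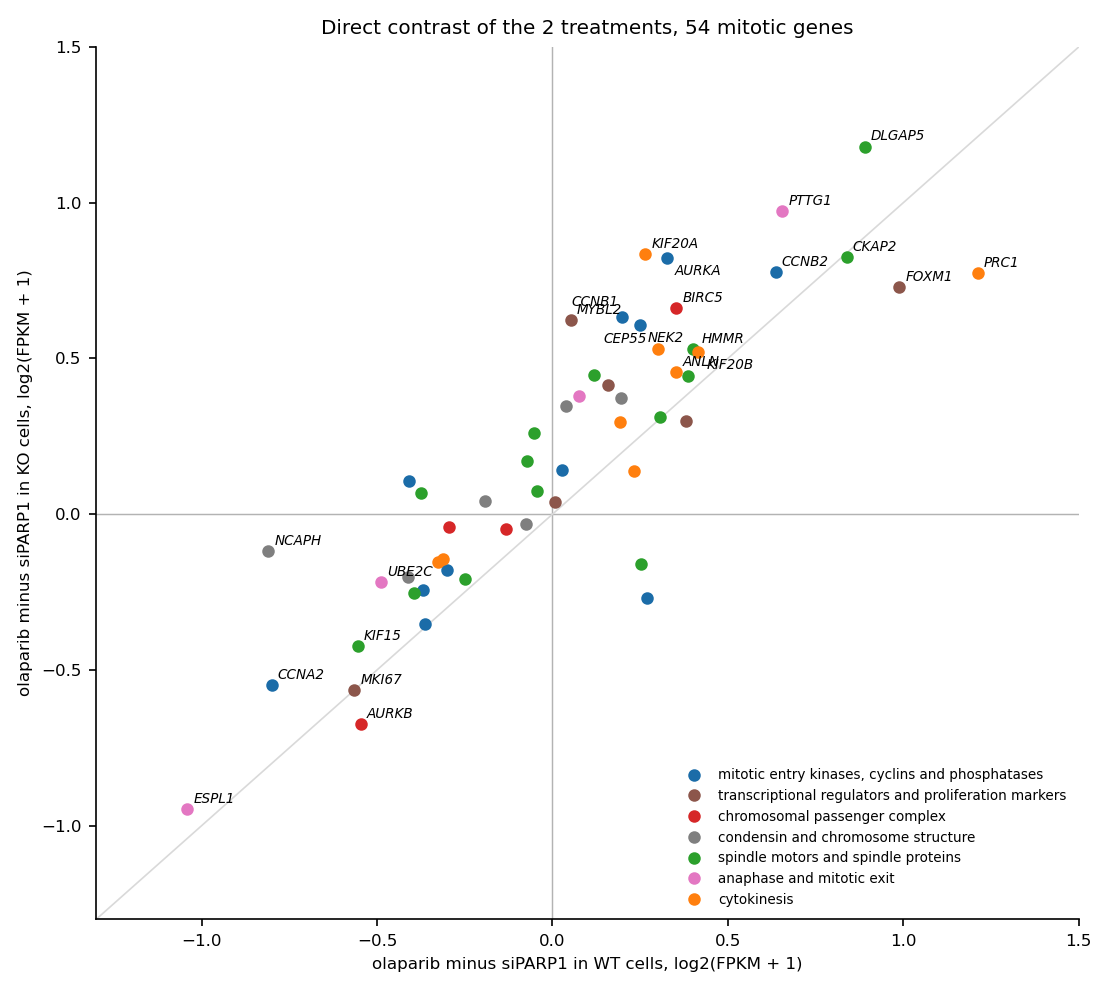
Each point is 1 of the 54 genes, coloured by role; the x axis gives olaparib minus siPARP1 in WT cells and the y axis the same in KO cells, in log2(FPKM + 1), with the grey diagonal marking equal values. DLGAP5, PTTG1, CCNB2, CKAP2, FOXM1 and PRC1 lie at the upper right and ESPL1, CCNA2, AURKB and KIF15 at the lower left in both genotypes.

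Between the genotypes, untreated cells differed in about as large a share of members as of all genes. In KO cells 9 of the 54 were lower and 3 higher than in WT cells, where 10.9% of all genes were lower and 9.58% higher, and the members' median log2 difference was 0.00 (−0.003). With values rescaled to a fixed total over all rows the split was 5 lower and 5 higher. That total rests in large part on loci without an Ensembl identifier. They held 47.8 to 49.8% of the FPKM in untreated libraries and 43.4 to 47.3% in treated ones. The 3 largest falls were CDCA3, ANLN and NCAPD2. CDCA3, a cofactor of a ubiquitin ligase that acts on WEE1, measured 22.2, 24.8 and 24.2 FPKM in KO libraries, against 34.1, 32.4 and 30.5 FPKM in WT libraries (log2 −0.43 ± 0.07, SE; adjusted p = 0.000516). For ANLN the untreated KO libraries, given above, all lay below the untreated WT libraries (log2 −0.38 ± 0.05, SE; adjusted p = 3.27e-05). NCAPD2, a condensin I subunit, measured 66.6, 63.4 and 69.0 FPKM in KO libraries, against 83.8, 90.2 and 83.7 FPKM in WT libraries (log2 −0.37 ± 0.05, SE; adjusted p = 4.21e-05). None of these 3 falls had overlapping libraries. The 3 rises were KIF15, CCNF and NCAPG. KIF15 measured 11.6, 11 and 10.8 FPKM in KO libraries, against 7.95, 8.94 and 7.61 FPKM in WT libraries (log2 0.41 ± 0.08, SE; adjusted p = 0.00268). CCNF, the cyclin that serves as a substrate adaptor of an SCF ubiquitin ligase, measured 11.8, 11.3 and 11 FPKM in KO libraries, against 9.41, 10.2 and 10.1 FPKM in WT libraries (log2 0.18, adjusted p = 0.0308). NCAPG, another condensin I subunit, measured 25.6, 25.3 and 27.4 FPKM in KO libraries, against 22.9, 23.4 and 23.6 FPKM in WT libraries (log2 0.15, adjusted p = 0.0300). The CCNF call was lost without any 1 of KO untreated libraries 1 and 2 or WT untreated libraries 1 and 3 (log2 0.15 to 0.20), and the NCAPG call without KO untreated library 3 or any 1 WT untreated library (log2 0.12 to 0.16).

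Among treated cells the called members were mostly higher in KO cells under olaparib and mostly lower under siPARP1. Under olaparib 11 members were higher and 3 lower in KO cells than in WT cells, where 5.68% of all genes were higher and 7.16% lower (members' median log2 0.10); with only the groups compared in the fit, 6 were higher and 4 lower. Under siPARP1 2 were higher and 14 lower, where 11.8% were higher and 11.2% lower (members' median log2 −0.06); with values rescaled to a fixed total over all rows the split was 3 higher and 10 lower, and over annotated genes outside the mitochondrial genome 4 and 11. CKAP2L and NCAPD2 were lower in KO cells in all 3 conditions, and 0 members were higher in all 3. KIF20A, MYBL2 and NEK2 were higher in KO cells under olaparib and lower under siPARP1. Matching counts of such shared and opposite calls over all genes were not taken. KIF20A, a kinesin of the central spindle, measured 23.6, 22.9 and 23.6 FPKM in KO and 20.2, 20.1 and 19.4 FPKM in WT libraries under olaparib (log2 0.22 ± 0.05, SE; adjusted p = 0.00437). Under siPARP1 KIF20A measured 13.2, 11.9 and 12.9 FPKM in KO and 16.3, 16.6 and 16.3 FPKM in WT libraries (log2 −0.35 ± 0.05, SE; adjusted p = 6.73e-05). The genotypes did not overlap in either condition. MYBL2 measured 17.1, 15.1 and 15.7 FPKM in KO and 12.2, 13.4 and 13.2 FPKM in WT libraries under olaparib, and 10.8, 9.04 and 10.2 FPKM in KO and 12.1, 11.6 and 13.7 FPKM in WT libraries under siPARP1. For NEK2 the log2 difference was 0.20 in olaparib-treated cells (adjusted p = 0.0261) and −0.16 in siPARP1 cells (adjusted p = 0.0422). The NEK2 call under olaparib was lost without KO olaparib library 2 or WT olaparib library 1 or 3 (log2 0.15 to 0.19), and with only the groups compared in the fit. That under siPARP1 was lost without any 1 of the 3 KO siPARP1 libraries or WT siPARP1 library 1 or 3 (log2 −0.18 to −0.13), with no filter, under both rescalings, without the variance trend, under the replicate block and with only the groups compared. The MYBL2 difference under olaparib was lost without KO olaparib library 1 or WT olaparib library 1 (log2 0.24 and 0.24). With only the groups compared in the fit, the MYBL2 differences under olaparib and under siPARP1 were both lost. The largest single difference was that of CDC25B under olaparib (log2 −0.73 in KO cells), a gene that did not pass the test under olaparib in WT cells.

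The genotype differences of the members were set beside those of the genes around them on the chromosome. For each member, the median KO minus WT difference of the other tested genes within 5 Mb on each side was taken as a description of its surroundings. Of the 12 members called in untreated cells, 11 had the sign of their surroundings; the exception was NCAPG (log2 0.15, surroundings −0.07). The counts were 9 of 14 under olaparib and 14 of 16 under siPARP1. Under olaparib the exceptions were MYBL2, NCAPG, KIF4A, HMMR and KIF20A, all higher in KO cells with surroundings below 0. How many members that were not called had that sign was not counted, so these counts do not set the called ones apart. Some of the medians were small, such as −0.02 for KIF11, −0.04 for KIF20B and −0.05 for UBE2C in untreated cells. CDCA3 and NCAPD2, both on chromosome 12, had surroundings of −0.26 each in untreated cells, beside their own −0.43 and −0.37. ANLN on chromosome 7 had −0.38 beside −0.285 for 32 neighbours, CKAP2L on chromosome 2 had −0.36 beside −0.17, and KIF15 on chromosome 3 had 0.41 beside 0.24 for 110 neighbours. When the median of each 10 Mb bin of at least 20 tested genes was subtracted before the test, an alternative chosen after seeing the data, 2 members were lower and 1 higher in untreated KO cells, 1 lower and 7 higher under olaparib, and 9 lower and 0 higher under siPARP1. Some lost calls came with smaller values, such as ANLN at −0.11 and NCAPD2 at −0.08 in untreated cells. Others kept theirs: untreated PTTG1 stood at −0.27 (adjusted p = 0.0587) and KIF20B at −0.22 (adjusted p = 0.0632), beside −0.29 and −0.20 before, and under olaparib HMMR stood at 0.225, NEK2 at 0.21 and TPX2 at 0.11, beside 0.226, 0.20 and 0.12. Of the 54 members 17 overlap another tested gene and 13 do so on the other strand, among them CCNA2, FOXM1, CDCA3, NCAPD2, NCAPG, ANLN and KIF20A; the sources used here do not state whether counting used the strand, so reads of such pairs cannot be told apart.

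**Figure D4:**
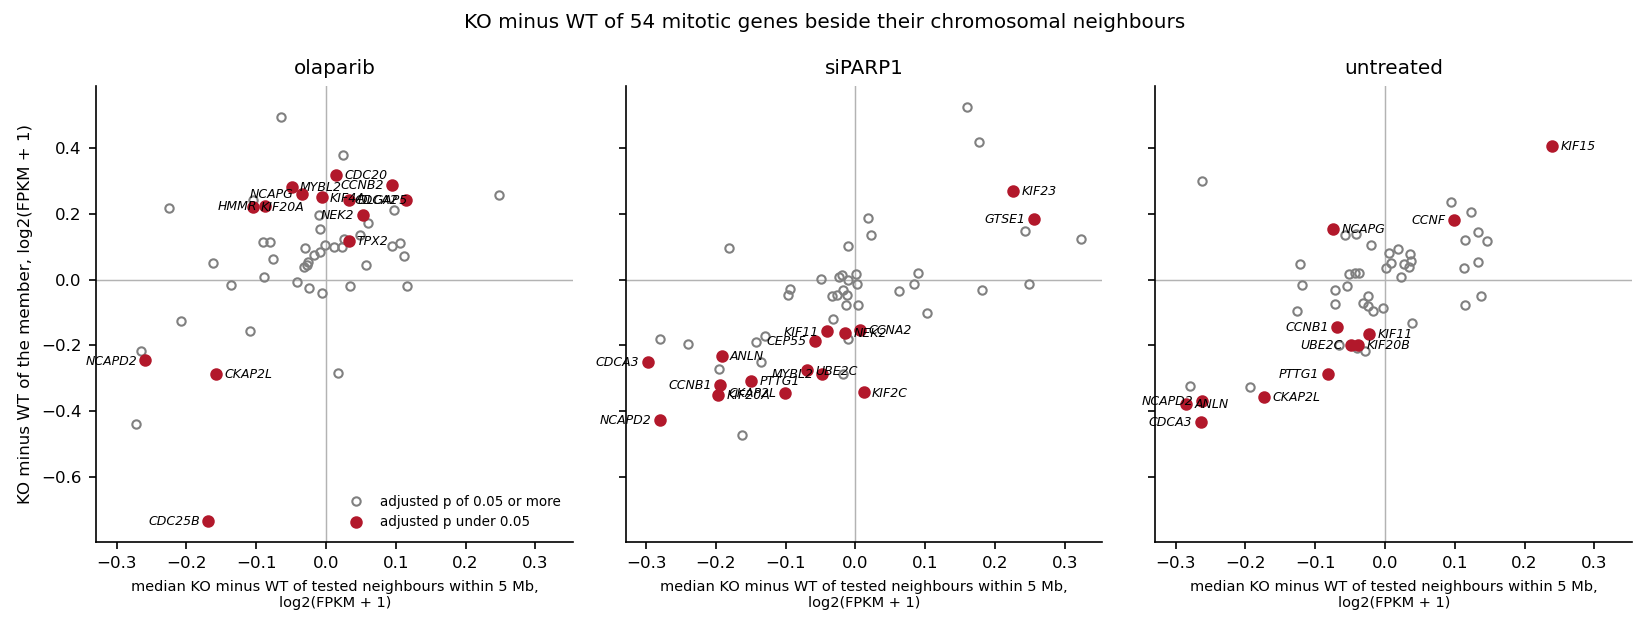
For each condition, the y axis gives KO minus WT of each of the 54 genes and the x axis the median KO minus WT of tested genes within 5 Mb, both in log2(FPKM + 1); filled points passed the test. In untreated cells the filled points run from CDCA3, ANLN and NCAPD2 at the lower left to KIF15 at the upper right, while under olaparib 11 filled points lie above 0 and 3 below.

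Whether the response to an agent differed between the genotypes was tested as an interaction. For olaparib 4 members had a higher response value in KO cells and 0 a lower one, where 1.4% of all genes were higher and 1.66% lower; at an unadjusted p under 0.05, limma gave 18 higher and 3 lower. These were KIF20A (difference of log2 changes 0.31, adjusted p = 0.0157), CDC20 (0.28, adjusted p = 0.016), CCNB1 (0.26, adjusted p = 0.0185) and ANLN (0.25, adjusted p = 0.0499), all of which fell less in KO cells. CDC20 shows the pattern at the level of libraries: 72.0 to 76.6 FPKM in olaparib KO cells and 57.5 to 60.8 FPKM in olaparib WT cells, while the untreated genotypes overlapped. For ANLN and CCNB1, the untreated WT libraries were the highest of all groups. The ANLN call was lost on leaving out any 1 of the 12 libraries of the contrast (0.22 to 0.28), and the CCNB1 call without WT untreated library 1 (0.25). The ANLN call was also lost under most other settings, and the CCNB1 call with values rescaled to a fixed total over all rows. Over the 54 members the median difference was 0.14, with 45 positive and 9 negative, beside a median of −0.01 over all genes. The members share their libraries, so these signs are not independent of each other. The shares of all genes that were positive, or that passed at an unadjusted p, were not counted.

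For siPARP1 3 members had a lower response value in KO cells and 0 a higher one. Over all genes 2.52% were lower and 2.74% higher. At an unadjusted p under 0.05, limma gave 10 lower and 3 higher, and the matching share over all genes was not counted. MYBL2 (log2 difference −0.42, adjusted p = 0.0213), KIF2C, the kinesin that depolymerises microtubules (−0.40, adjusted p = 0.00243), and KIF20A (−0.26, adjusted p = 0.0322) fell further in KO cells. KIF2C measured 17.8, 17.4 and 17.2 FPKM in KO and 22.8, 22.3 and 22.2 FPKM in WT libraries under siPARP1, and 45.5, 47.8 and 47.1 FPKM in KO and 45.3, 43.6 and 46.0 FPKM in WT libraries untreated. The KIF2C genotypes stood apart under siPARP1 and overlapped untreated. The KIF20A call was lost without any 1 of 8 libraries (−0.26 to −0.21): KO untreated 1 and 2, WT untreated 1 and 3, KO siPARP1 2 and WT siPARP1 1, 2 and 3. The KIF20A call was also lost under both rescalings, under the replicate block and with only the groups compared in the fit. The MYBL2 call was lost without KO untreated library 2 (−0.41) and with only the groups compared. KIF20A was thus the 1 member called in both interactions, and in opposite directions, while both interactions share the untreated libraries.

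Other lists of cell cycle genes are given beside the members for scale, against the shares over all genes above: 22% lower and 25.2% higher under olaparib in KO cells, 20.4% and 24.9% under olaparib in WT cells, 22.8% and 31.9% under siPARP1 in KO cells, and 22.3% and 29.5% under siPARP1 in WT cells. Under olaparib 18 of 25 kinetochore and checkpoint genes were lower in KO cells and 22 of 25 in WT cells (median log2 −0.63 and −0.81), and under siPARP1 22 and 20 of 25 (−0.81 and −0.76). Of 29 replication genes that passed the filter, 23 were lower in KO and 28 in WT cells under olaparib (median −1.0 and −1.13), and 22 and 24 under siPARP1 (−0.53 and −0.56). Set against siPARP1 directly, 21 of these 29 genes in KO and 23 in WT cells were lower under olaparib, with medians of −0.41 and −0.55, beside 0.16 and 0.05 for the 54 members. MCM6, a subunit of the replicative helicase, differed by −1.36 in KO and −1.33 in WT cells on the log2 scale. Of 16 subunits and regulators of the anaphase-promoting complex, 4 were lower and 4 higher in KO cells under olaparib and 3 and 5 in WT cells, and 5 and 4 in KO and 6 and 7 in WT cells under siPARP1; under olaparib in KO cells these shares, 25% each way, are near those over all genes. FBXO5, an inhibitor of the complex, was the largest fall among them in olaparib KO cells (log2 −1.39). Of the 11 DREAM and MuvB subunits, the complex that reads the CHR, 4 were lower and 0 higher in KO and 5 and 1 in WT cells under olaparib, and 6 and 3 in KO and 5 and 2 in WT cells under siPARP1. Regulators of mitotic entry outside the 54 genes were mixed; WEE1, the kinase that holds CDK1 off, averaged 5.23 FPKM under olaparib and 10.5 FPKM under siPARP1 in KO cells, and 5.15 and 12.9 FPKM in WT cells (log2 −0.89 and −1.18 between the agents). These lists were chosen with results of the same data known, and none was tested as a set.

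**Figure D5:**
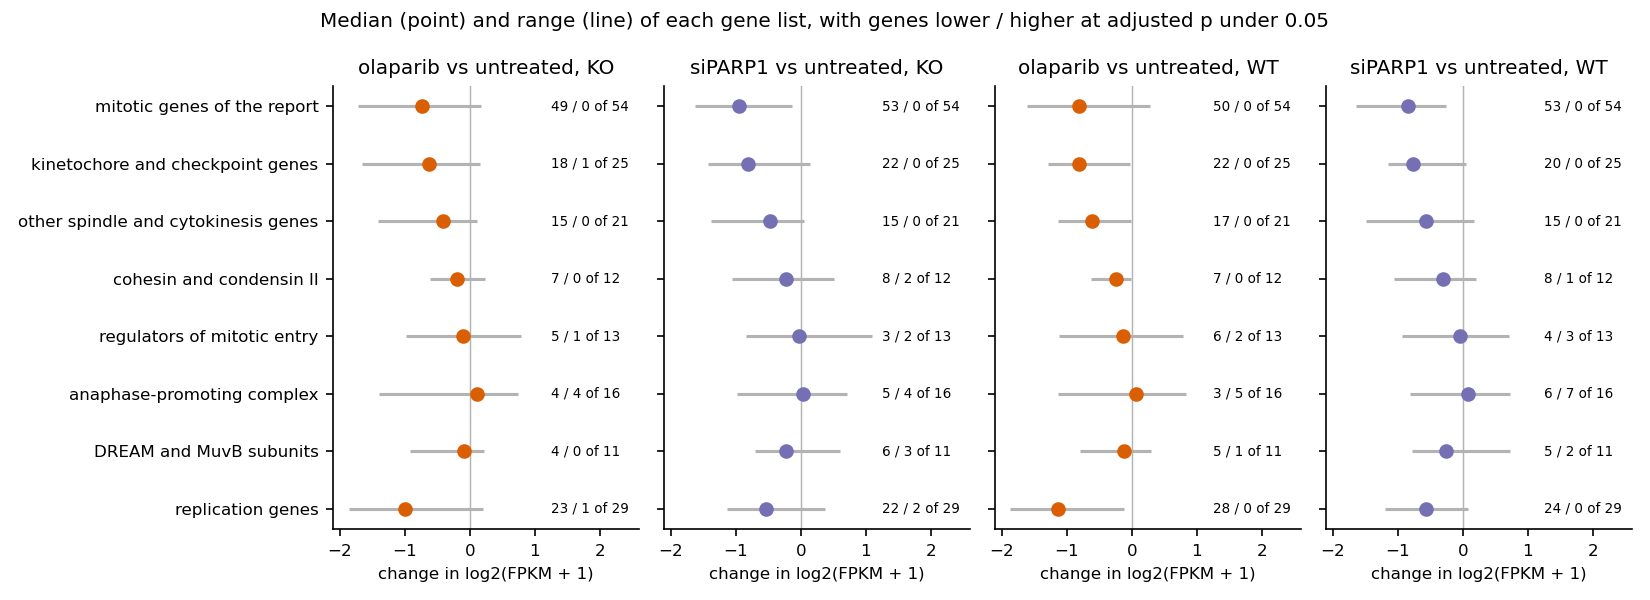
For each treatment and genotype, points give the median and grey lines the lowest to highest log2 change of the 54 mitotic genes and of 7 other lists, with the number of genes lower and higher at adjusted p under 0.05 at the right. The medians of the mitotic, kinetochore and replication lists lie left of 0 in all 4 panels, while most of their ranges cross 0, and the median of the anaphase-promoting complex lies between 0.03 and 0.12.

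Among the 46 members with a promoter window, the 35 with a CHR had a median log2 change of −0.70 under olaparib in KO cells, and the 11 without one −0.96; in WT cells the medians were −0.80 and −1.14. Under siPARP1 the medians were −0.95 with and −0.95 without a CHR in KO cells, and −0.87 and −0.80 in WT cells. The members without a CHR of the searched forms included CCNB1, CCNA2, AURKB, MYBL2, PTTG1 and NCAPH. Their range overlapped that of the others in each comparison, and other forms of the CHR were not searched.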

How the data were processed

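Gene values are FPKM as deposited by the authors, and a table of transcript FPKM served for 1 alternative; per the submitters' processing notes, the tools included StringTie 2.2.1, featureCounts 2.0.3, HISAT2 2.2.1, fastp 0.23.2 and DESeq2 1.38.3, with GRCh38 and no role or order given. FPKM are not counts, so no count test was run, and absolute depth is unknown. Groups follow the genotype and treatment labels. Genes at 1 FPKM or more in at least 3 of 18 libraries (15764 genes) were fitted on log2(FPKM + 1) using limma (version 3.58.1, under R 4.3.3), in 1 model of all 6 groups with a trended prior and Benjamini-Hochberg adjustment over all genes; a log2 change understates that of low genes. The procedure was checked on simulated data. Values in every library were given for 10 fixed genes, for the 3 largest called rises and falls per main comparison and for called interactions; other members are named by role. The members, gene lists and tests were chosen with earlier results of these data known. Replicate numbers did not pair the libraries: deviations from group means correlated at −0.071 to 0.087 for equal numbers. Alternatives were other scalings, filters and pseudocounts, transcript sums, fewer groups in the fit, a replicate block, leaving out each library and, added after seeing the data, removal of bin medians and of uneven members.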

Additional observations from a re-analysis of the deposited data

Results flagged for a closer look

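The difference between the genotypes in the response to an agent, tested as an interaction, passed the threshold for 4 members under olaparib and 3 under siPARP1. Over all genes 1.4% were higher and 1.66% lower for olaparib, and 2.74% were higher and 2.52% lower for siPARP1. For olaparib the KO minus WT differences of the log2 changes were 0.31 for KIF20A, 0.28 for CDC20, 0.26 for CCNB1 and 0.25 for ANLN, each of which fell less in KO cells. For siPARP1 they were −0.42 for MYBL2, −0.40 for KIF2C and −0.26 for KIF20A, each of which fell further in KO cells. The ANLN call was lost on leaving out any single library of its contrast. The CCNB1 call for olaparib and the KIF20A and MYBL2 calls for siPARP1 were also lost under some alternatives, as given above.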

How the results depend on the processing

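The counts of members lower than untreated were 48 to 49 (olaparib KO), 49 (olaparib WT), 52 to 53 (siPARP1 KO) and 53 (siPARP1 WT) when each library was left out in turn. Leaving out a library gave 5 to 7 lower and 1 to 2 higher for KO against WT untreated, 3 to 4 and 7 to 10 under olaparib, and 12 to 14 and 1 to 3 under siPARP1. Without WT untreated library 1, 5 were lower and 1 higher in untreated KO cells, without WT untreated library 3 1 was higher, without KO olaparib library 2, 7 were higher under olaparib, and without KO siPARP1 library 3 or WT siPARP1 library 1, 1 was higher under siPARP1. Olaparib KO gave 0 to 1 higher. The interactions gave 2 to 4 higher for olaparib (2 without WT untreated library 1) and 1 to 4 lower for siPARP1 (1 without KO untreated library 2). Olaparib against siPARP1 gave 9 to 12 lower and 26 to 27 higher in KO cells, and 16 to 17 and 19 to 22 in WT cells. Rescaling to a fixed total over all rows gave 5 lower and 5 higher for KO against WT untreated and 2 higher for the olaparib interaction. Fitting only the groups compared gave 5 lower untreated, 6 higher and 4 lower under olaparib, 8 lower and 0 higher under siPARP1 and 1 lower for the siPARP1 interaction. Under siPARP1, 4 were higher over annotated genes outside the mitochondrial genome and 1 with transcript sums. With bin medians removed, 2 were lower and 1 higher untreated, 1 and 7 under olaparib, and 9 and 0 under siPARP1. Signs reversed with transcript sums for KIF11 (KO against WT 1.18 untreated and 1.13 under siPARP1, and olaparib WT 0.0133) and ASPM (siPARP1 WT 0.18). With bin medians removed they reversed for NCAPD2 (olaparib 0.0279), GTSE1 (siPARP1 −0.0153) and CDCA3 (siPARP1 0.0412). None of the reversed values passed the test, and the cause was not tested. With transcript sums, the KIF23 falls under olaparib in both genotypes and under siPARP1 in KO cells did not pass. Nor did the KIF11 falls under olaparib in KO cells and under siPARP1 in both genotypes. The replicate block, with numbers that do not pair the libraries, gave 48 and 49 lower under olaparib in KO and WT cells, and 13 lower in KO cells under siPARP1. Absolute depth is unknown, so no counting interval can be given.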
